A study of Mus musculus with 11 samples.

Results

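The comparison described here is that of P3 PAB hearts with P3 sham hearts, which holds 6 of the 11 libraries of the study. Pulmonary artery banding (PAB) ties the artery that leaves the right ventricle around a needle, so that the right ventricle pumps against a narrowed outlet once the needle is withdrawn. All animals were C57BL/6 mice by the labels (C57Bl/6J in the methods) and had their chest opened under hypothermia on the day of birth (P0), and sham animals went through the same steps without the band. RNA was taken at postnatal day 3 (P3) for 3 sham and 3 PAB libraries, and the P7 libraries (3 sham, 2 PAB) serve below as a second time point. The members are all libraries whose label gives P3, and the labels name the tissue as heart, whereas the methods of the study name ventricles. No source says whether a library is 1 heart or a pool or how the animals were divided by sex. The p-values below therefore measure only the spread between these libraries. The band loads the right ventricle, and the left and right ventricles were not sequenced apart, so a change in 1 of them enters these values averaged with the other. In whole tissue, fewer cells of a type and less RNA per cell cannot be told apart.

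A ventricle under pressure overload is known to thicken its muscle, and cardiomyocytes then raise a set of genes typical of the fetal heart, among them natriuretic peptides, the slow myosin heavy chain and skeletal actin. Stretch is sensed in part at the Z-disc, the plate that anchors actin and titin, and at the intercalated disc, the junction between cardiomyocytes, where LIM-domain and ankyrin repeat proteins bind. In the mouse, P3 lies within the days in which cardiomyocytes still divide, and P7 near their end.

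The 6 libraries held between 19274045 and 23745398 reads counted on genes, and a count of 3, the limit that a count of 0 allows, stood for 0.114 to 0.138 CPM. CPM is the count per 1e6 counted reads after TMM normalization, and such limits cover counting error only. Of 50600 genes listed, 15808 passed the filter on low counts and were tested with edgeR. Differences are given as log2 fold changes, PAB minus sham, with the standard error of the fit. Calls needed a fold change of 1.5 or more together with an adjusted p (Benjamini-Hochberg) no higher than 0.05. The libraries of the 2 groups were not well apart. The root mean square log2 difference over genes was 0.377 to 0.417 between sham libraries, 0.361 to 0.377 between PAB libraries and 0.367 to 0.434 between a sham and a PAB library. P3 sham replicate 1 stood apart: Xist, which coats and silences an X chromosome, was at 1061 CPM in it and between 0.303 and 0.723 CPM in the other 5, and the Y-linked Ddx3y was at 0.0429 CPM in it and between 43.0 and 51.0 CPM in the other 5. Where a called gene lost its call without this library, its value without it is given, and the genes that gained a call are counted.

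The defining genes of heart muscle were abundant in every library, as Tnnt2, cardiac troponin T, was at 5113 ± 278 CPM (SD, n = 3) in sham and 5195 ± 212 CPM (SD, n = 3) in PAB hearts. Myl2, the regulatory light chain of ventricular myosin, was at 6686 ± 486 CPM (SD, n = 3) and 7321 ± 230 CPM (SD, n = 3). Summed levels of the marker lists of fibroblasts, endothelium, smooth muscle, epicardium, macrophages, monocytes and neutrophils, lymphocytes, erythroid cells, skeletal muscle, lung, brown fat and Schwann cells overlapped between the groups. The sum of 10 cardiomyocyte markers was 60350 to 64320 CPM in sham and 64340 to 71430 CPM in PAB hearts, that of 7 ventricular markers 7321 to 8233 and 8358 to 8808 CPM, and that of 6 endocardial markers 104 to 107 and 89.6 to 99.9 CPM. These 3 sums did not overlap, and no gene of the 3 lists was called. Single genes carried 2 of them: without Myl2 the other 6 ventricular markers summed to 1196 to 1265 CPM in sham and 1226 to 1323 CPM in PAB hearts, and without Npr3 the other 5 endocardial markers summed to 67.0 to 70.6 and 62.3 to 70.9 CPM, both of which overlapped. Without Myh6 the other 9 cardiomyocyte markers still did not overlap, at 31890 to 33940 and 34820 to 37780 CPM. The sum of 10 atrial markers was 286 to 390 CPM in sham and 472 to 544 CPM in PAB hearts. Without Nppa the other 9 summed to 146, 219 and 234 CPM in sham and 145, 137 and 289 CPM in PAB replicates 1, 2 and 3, which overlapped. The part of these shifts in the results below was not tested. Among 15 skeletal muscle markers Myod1 was at 0 in all 6 libraries and 10 were under 1 CPM in each of them. The 8 that were tested had a median log2 fold change of 0.35, with 0 called, and 2 of the 8 (25%) were higher without overlap, where 8.65% of all genes were. These were Myh8, the perinatal skeletal myosin, at 1.29 to 1.79 CPM in sham and 2.20 to 3.46 CPM in PAB hearts, and Mylpf, a fast skeletal light chain, at 0.322 to 0.472 and 0.606 to 0.913 CPM. Their part in the changes of the skeletal muscle genes described next was not tested.

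At P3, 17 genes were higher in PAB hearts (0.108% of the genes tested) and 3 were lower (0.0190%). The higher genes encoded structural proteins of the contractile apparatus and of intermediate filaments (Acta1, Mybpc2, Xirp2, Fhl1, Ankrd23, Krt8, Krt18), secreted proteins and proteins of the secretory pathway (Spp1, Saa3, Fstl3, Qsox1), and a mixed remainder (Sprr1a, Mapt, Sypl2, Tceal7, Bex1 and the noncoding 4833412C05Rik). The lower genes were Pmel, Art1 and Cntn2. Their log2 fold changes ran from 0.60 to 3.97 for the higher genes and from -1.58 to -1.16 for the lower ones. In all 20, every PAB library lay outside the range of the sham libraries, as it did for 8.65% of all tested genes in the higher and 8.02% in the lower direction. The calls come from the same libraries, so this lack of overlap follows largely from the choice of genes and is not further evidence. All 22 genes not called with an adjusted p up to 0.10 likewise did not overlap. Of the called genes, 8 of the 17 higher and all 3 lower ones had a mean under 10 CPM over the 6 libraries. The share of all tested genes under that level was not counted.

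**Figure D1:**
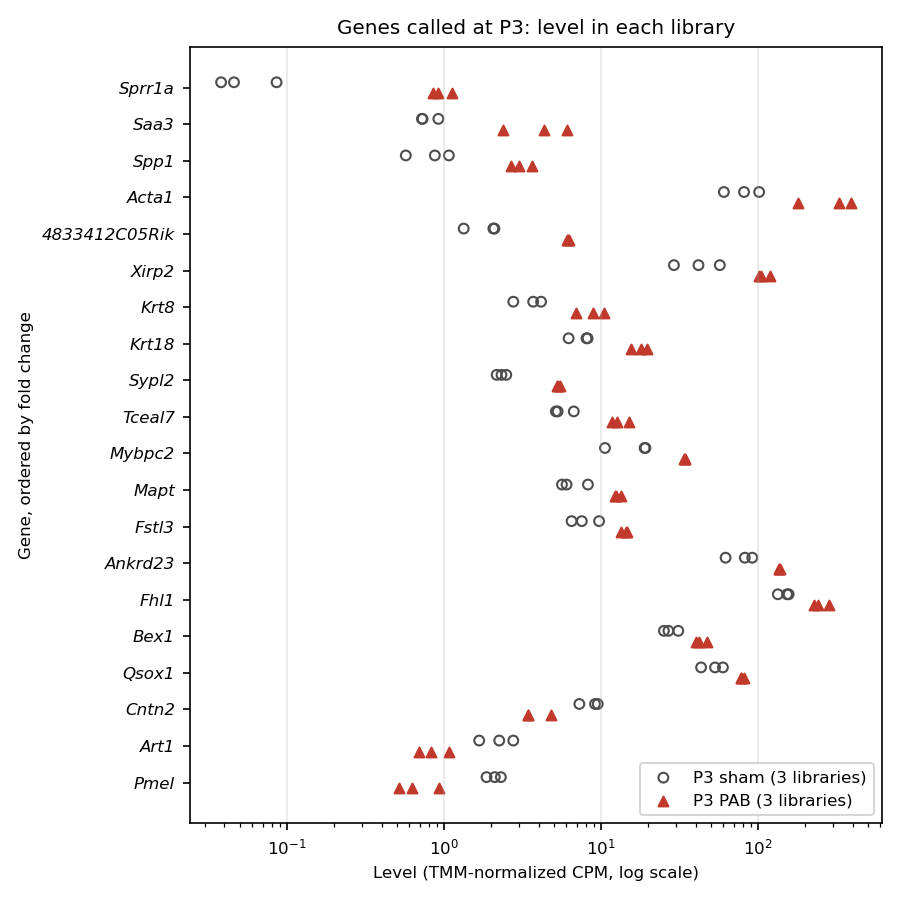
Level of the 20 called genes in each P3 library, in CPM on a log axis, with sham libraries as open circles and PAB libraries as triangles, ordered by fold change. In each of the 20 genes the 3 PAB libraries lie on 1 side of the 3 sham libraries, which follows largely from their being called on these libraries. Levels span from 0.038 CPM for Sprr1a in a sham library to 387 CPM for Acta1 in a PAB library.

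Acta1 encodes the skeletal form of alpha-actin, which the heart uses before birth and under load (chromosome 8, 123891769 to 123894751, minus strand). It had the highest level per length of the called genes in PAB hearts. Acta1 was at 60.4, 101 and 81.3 CPM in sham replicates 1, 2 and 3 and at 179, 325 and 387 CPM in PAB replicates 1, 2 and 3. The lowest PAB library was thus above the highest sham library, while the PAB libraries differed among themselves more than the sham libraries did. The log2 fold change was 1.87 ± 0.30 (SE, adjusted p = 0.0190). Per exonic length, Acta1 rose from 52.8 to 193 RPKM, which left it well under Actc1, the cardiac alpha-actin, at 5404 RPKM in sham and 6451 RPKM in PAB hearts. Actc1 had a log2 fold change of 0.26 that was not called (adjusted p = 0.530). The Acta1 and Actc1 transcripts were 86.3% identical over 1132 aligned bases, with no identical run longer than 29 bases, and the counting of reads that match both is not given in the sources used here. Acta1 also lies wholly within Gm20388, a gene model on the opposite strand, which was at 21.8 to 25.3 CPM in sham and 29.7 to 34.2 CPM in PAB hearts and was not called. Because no source gives the strand setting of the counting, reads of overlapping genes cannot be told apart in these data. Xirp2, Mapt, Krt8, Fstl3, Mybpc2 and Qsox1 also overlap gene models on the opposite strand, and Spp1 overlaps one on its own strand.

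Mybpc2, the fast skeletal form of myosin-binding protein C (chromosome 7, 44501699 to 44524656, minus strand), was at 19.2, 18.9 and 10.6 CPM in sham and at 34.0, 34.1 and 33.8 CPM in PAB hearts. The PAB libraries were nearly equal and the sham libraries spread, with replicate 3 lowest. It was raised by a log2 fold change of 1.06 (SE 0.17, adjusted p = 0.0190). Its transcript shared 66.9% of aligned bases with that of Mybpc3, the cardiac form, and no run over 20 bases.

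Xirp2, which binds actin at the intercalated disc and the Z-disc (chromosome 2, 67446002 to 67526614, plus strand), was at 57.0, 41.7 and 29.1 CPM in sham and at 119, 104 and 101 CPM in PAB hearts. Its log2 fold change of 1.34 ± 0.16 (SE, adjusted p = 0.00529) had the second lowest p of all genes. The sham libraries spread over a wider fold than the PAB libraries. Fhl1, a LIM-domain protein that binds titin (chromosome X, 56731787 to 56793346, plus strand), was at 156, 153 and 133 CPM in sham and at 227, 241 and 283 CPM in PAB hearts. The rise of Fhl1 was small in size, with a log2 fold change of 0.77 ± 0.10 (SE, adjusted p = 0.00898), and among the called genes Fhl1 was second to Acta1 in its level per exonic length, with 67.5 RPKM in PAB hearts. Ankrd23, a muscle ankyrin repeat protein that also binds titin (chromosome 1, 36530188 to 36536883, minus strand), was at 91.7, 82.2 and 62.0 CPM in sham and at 139, 137 and 136 CPM in PAB hearts. It rose by a log2 fold change of 0.80 (SE 0.12, adjusted p = 0.00898). Ankrd23 shares its strand with Gm42417, a gene model that covers nearly all of it.

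Krt18 (chromosome 15, 102028180 to 102032027, plus strand) and Krt8 (chromosome 15, 101996698 to 102004482, minus strand) encode the paired keratins that form the intermediate filaments of simple epithelia, and they lie side by side in the genome. Krt18 had the lowest p of all genes. Krt18 was at 8.20, 8.07 and 6.21 CPM in sham and at 19.6, 18.0 and 15.6 CPM in PAB hearts. Krt8 was at 3.69, 4.15 and 2.76 CPM in sham and at 10.5, 8.83 and 6.95 CPM in PAB hearts. In both genes replicate 3 was the lowest library of each group, and the groups did not overlap. Krt18 rose by a log2 fold change of 1.24 (SE 0.15, adjusted p = 0.00529) and Krt8 by one of 1.30 (SE 0.20, adjusted p = 0.0117). Per length, Krt18 went from 5.21 to 12.3 RPKM and Krt8 from 1.80 to 4.47 RPKM. Keratins are also made by the epicardium, whose summed markers overlapped between the groups, at 126 to 133 CPM in sham and 124 to 143 CPM in PAB hearts. Within this list 3 of 9 genes (33.3%, against 8.65% of all genes) were higher and 1 (11.1%, against 8.02%) lower without overlap, and none was called. The lower gene was Aldh1a2, which makes retinoic acid, at 40.1 to 43.6 CPM in sham and 36.8 to 39.2 CPM in PAB hearts. The higher ones were Upk1b, a uroplakin, at 2.58 to 3.08 CPM in sham and 3.64 to 4.90 CPM in PAB hearts, the keratin Krt19 at 5.02 to 5.44 and 5.54 to 7.64 CPM, and Lrrn4 at 7.81 to 8.64 and 10.0 to 12.7 CPM. Their part in the rise of Krt8 and Krt18 was not tested. Wt1, which defines that layer, was at 16.5 ± 1.95 CPM (SD, n = 3) in sham and 17.9 ± 1.46 CPM (SD, n = 3) in PAB hearts.

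To show what lies before the starts of some of these genes, the 300 bases from 250 before to 50 after each start were read from RefSeq (GRCm38.p6), which had windows for 18 of the 20 called genes, all but Mapt and Pmel. Windows of 4 genes are printed because they hold letters matching the motifs of factors known for muscle or immediate responses. Capitals mark the MCAT motif of TEAD factors (CATTCC), the CArG box bound by serum response factor, the AP-1 motif (TGANTCA) and the TATA motif (TATAAA), each searched on both strands. The motifs did not overlap here. Positions count the annotated start as 0.
Acta1, chr8:123894726-123895025, minus strand, with a CArG box at -73 to -64, an MCAT motif at -46 to -41 and a TATA motif at -7 to -2: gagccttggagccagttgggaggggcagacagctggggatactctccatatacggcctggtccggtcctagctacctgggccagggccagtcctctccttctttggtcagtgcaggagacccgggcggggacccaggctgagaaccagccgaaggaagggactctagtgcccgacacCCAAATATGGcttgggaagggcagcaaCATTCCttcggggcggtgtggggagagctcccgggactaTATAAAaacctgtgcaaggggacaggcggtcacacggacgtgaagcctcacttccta
Fhl1, chrX:56779433-56779732, plus strand, 1 of 2 starts, with a TATA motif at -156 to -151 and a CArG box at -102 to -93: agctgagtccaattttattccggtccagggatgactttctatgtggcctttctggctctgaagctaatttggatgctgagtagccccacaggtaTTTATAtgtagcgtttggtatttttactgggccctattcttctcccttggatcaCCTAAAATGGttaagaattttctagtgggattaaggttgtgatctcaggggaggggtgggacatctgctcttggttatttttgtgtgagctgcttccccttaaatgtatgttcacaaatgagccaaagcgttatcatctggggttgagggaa
Mybpc2, chr7:44524620-44524919, minus strand, with an MCAT motif at -62 to -57: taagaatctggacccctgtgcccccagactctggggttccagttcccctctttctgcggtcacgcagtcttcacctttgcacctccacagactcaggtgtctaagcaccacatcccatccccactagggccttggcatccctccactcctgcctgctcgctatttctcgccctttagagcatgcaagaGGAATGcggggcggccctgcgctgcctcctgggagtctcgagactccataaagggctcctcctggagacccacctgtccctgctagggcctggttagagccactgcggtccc
Xirp2, chr2:67445752-67446051, plus strand, with an AP-1 motif at -107 to -101: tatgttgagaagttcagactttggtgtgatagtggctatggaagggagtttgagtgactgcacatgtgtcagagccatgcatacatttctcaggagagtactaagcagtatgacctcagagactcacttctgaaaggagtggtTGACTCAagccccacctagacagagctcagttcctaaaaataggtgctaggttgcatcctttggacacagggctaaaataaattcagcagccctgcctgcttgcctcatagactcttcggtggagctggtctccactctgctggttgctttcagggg

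Over the 19 windows of 16 of the 17 higher genes, an MCAT motif stood in 6 (Acta1, Ankrd23, Bex1, Mybpc2 and Tceal7, with 2 windows for Ankrd23) and in 14.66% of all 32851 windows. A CArG box stood in 3 (Acta1, Fhl1, 4833412C05Rik) and in 1.63% of all windows and an AP-1 motif in 2 (Sprr1a, Xirp2) and in 7.81%. The GATA motif (AGATAA) stood in 3 of the 19 and 11.18% of all windows, and the E-box (CANNTG) in 17 and 72.31%. These are counts of letters in windows of genes chosen by their change, and no test was made of them.

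Among secreted proteins, the largest fold was that of Saa3 (chromosome 7, 46711998 to 46715700, minus strand), an acute-phase serum amyloid A of inflamed tissue. Saa3 was at 0.730, 0.723 and 0.920 CPM in sham and at 2.37, 6.11 and 4.31 CPM in PAB hearts. Its log2 fold change was 2.43 ± 0.36 (SE, adjusted p = 0.00996), from 56 counts in the 3 sham libraries and 304 in the 3 PAB libraries. Spp1, osteopontin, a matrix protein made by macrophages and stressed cells (chromosome 5, 104435118 to 104441050, plus strand), was at 1.07, 0.571 and 0.874 CPM in sham and at 3.65, 2.99 and 2.68 CPM in PAB hearts, a log2 fold change of 1.89 ± 0.31 (SE, adjusted p = 0.0212). These 2 genes changed at low level, while macrophage markers summed to 113 to 137 CPM in sham and 115 to 127 CPM in PAB hearts and overlapped. Ly6c2 and Ccr2, marks of inflammatory monocytes, were at 0.326 ± 0.124 and 0.614 ± 0.192 CPM in sham and at 0.446 ± 0.196 and 0.823 ± 0.105 CPM in PAB hearts (SD, n = 3), and neither was called. Fstl3, a secreted protein that binds activins and myostatin (chromosome 10, 79777272 to 79782630, plus strand), was at 9.70, 7.53 and 6.49 CPM in sham and at 14.4, 13.3 and 14.7 CPM in PAB hearts, a log2 fold change of 0.84 ± 0.13 (SE, adjusted p = 0.0190). Qsox1, which forms disulfide bonds in secreted proteins (chromosome 1, 155776029 to 155812889, minus strand), was at 59.6, 53.1 and 43.3 CPM in sham and at 81.2, 77.5 and 77.8 CPM in PAB hearts. With a fold change of 1.52 it lay just inside the threshold of 1.5 (adjusted p = 0.0337).

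Sprr1a had the largest fold of all called genes and the fewest counts. It encodes a small proline-rich protein of the cell envelope of skin that injured neurons and loaded cardiomyocytes also make (chromosome 3, 92483952 to 92485895, minus strand). Sprr1a was at 0.0859, 0.0381 and 0.0460 CPM in sham, all under the limit that a count of 0 allows, and at 0.913, 1.13 and 0.853 CPM in PAB hearts. This was 4 counts over the sham libraries against 69 over the PAB libraries, a ratio of 17.1 after scaling with a 95% interval of 6.40 to 64.7 that covers counting error only. The fitted log2 fold change was 3.97 ± 0.68 (SE, adjusted p = 0.0274) and depends on the prior count. Its window holds a pair of AP-1 motifs, at -146 to -140 and -116 to -110, and a TATA motif at -43 to -38, in capitals.
Sprr1a, chr3:92485832-92486131, minus strand: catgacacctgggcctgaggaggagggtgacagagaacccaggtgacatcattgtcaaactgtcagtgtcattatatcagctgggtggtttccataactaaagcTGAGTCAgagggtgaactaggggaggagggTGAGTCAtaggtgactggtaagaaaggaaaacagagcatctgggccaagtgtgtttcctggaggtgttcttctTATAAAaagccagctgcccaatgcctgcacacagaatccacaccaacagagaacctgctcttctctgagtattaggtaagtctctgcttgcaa

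The remaining higher genes are not of 1 kind. Mapt, the microtubule-binding protein tau (chromosome 11, 104231390 to 104332090, plus strand), was at 8.24, 5.63 and 6.03 CPM in sham and at 12.4, 13.4 and 12.2 CPM in PAB hearts, with a log2 fold change of 0.94 ± 0.13 (SE, adjusted p = 0.00898). Sypl2, or mitsugumin 29, a membrane protein of the junctions where the calcium store of muscle meets the T-tubule (chromosome 3, 108211472 to 108226648, minus strand), was at 2.49, 2.32 and 2.16 CPM in sham and at 5.27, 5.33 and 5.48 CPM in PAB hearts. Both groups of Sypl2 were tight, and the log2 fold change was 1.20 (SE 0.17, adjusted p = 0.00898). The noncoding 4833412C05Rik, a lincRNA of unknown role (chromosome 7, 67784538 to 67804139, minus strand), was at 2.06, 2.09 and 1.33 CPM in sham and at 6.06, 6.28 and 6.13 CPM in PAB hearts, with a log2 fold change of 1.74 ± 0.25 (SE, adjusted p = 0.00898).

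Tceal7 and Bex1 are neighbours of 1 gene family on chromosome X (136214779 to 136226100, plus strand, and 136213972 to 136215513, minus strand), and encode small proteins named after a transcription elongation factor and after their expression in brain. Tceal7 was at 6.70, 5.29 and 5.15 CPM in sham and at 12.6, 11.8 and 15.03 CPM in PAB hearts, with a log2 fold change of 1.20 ± 0.17 (SE, adjusted p = 0.00898). Bex1 was at 31.0, 26.8 and 25.1 CPM in sham and at 41.7, 40.3 and 47.3 CPM in PAB hearts, with a log2 fold change of 0.64 ± 0.11 (SE, adjusted p = 0.0301). The annotated genes overlap by 735 bases on opposite strands, so that the rise of each may hold reads of the other. Fhl1, Tceal7 and Bex1 are on chromosome X, and in each of them sham replicate 1, the library with high Xist, was the highest sham library and below every PAB library.

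Of the lower genes, Pmel, a melanosome protein (chromosome 10, 128704195 to 128720238, plus strand), was at 2.10, 1.86 and 2.30 CPM in sham and at 0.623, 0.520 and 0.934 CPM in PAB hearts. It fell by 1.58 on the log2 scale (SE 0.26, adjusted p = 0.0192), from 148 counts over the sham libraries to 50 over the PAB libraries. Pmel overlaps Cdk2 by 837 bases on the opposite strand, and Cdk2 was at 62.2 to 69.0 CPM in sham and 57.3 to 60.7 CPM in PAB hearts, not called. Art1, a muscle enzyme of the cell surface that attaches ADP-ribose to proteins (chromosome 7, 102101743 to 102113933, plus strand), was at 1.67, 2.25 and 2.76 CPM in sham and at 1.08, 0.823 and 0.690 CPM in PAB hearts, and fell by 1.36 on the log2 scale (SE 0.22, adjusted p = 0.0212). Art5, which overlaps Art1 by 7747 bases on the opposite strand, was at 0.859 to 1.47 CPM in sham and 0.498 to 0.934 CPM in PAB hearts, and the groups overlapped. Cntn2, a cell adhesion protein found in neurons and in the conduction system of the heart (chromosome 1, 132509427 to 132543256, minus strand), was at 9.14, 9.51 and 7.27 CPM in sham and at 3.45, 4.81 and 3.41 CPM in PAB hearts. It fell by 1.16 on the log2 scale (SE 0.20, adjusted p = 0.0304).

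**Figure D2:**
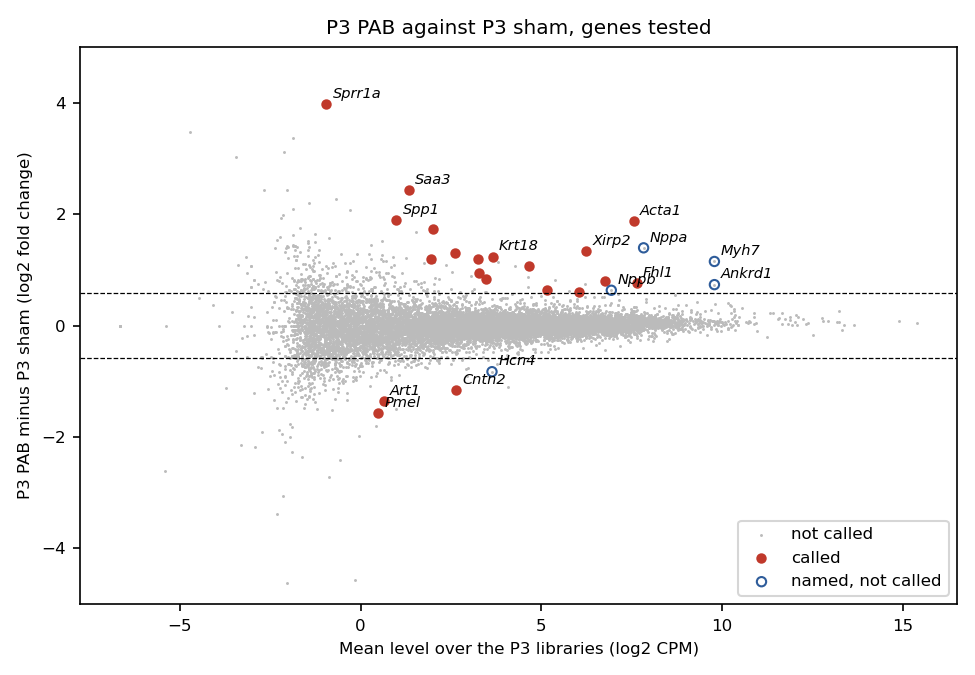
Log2 fold change of P3 PAB against P3 sham on the vertical axis and mean level of the 6 P3 libraries in log2 CPM on the horizontal axis, 1 point for each of the 15808 genes tested, except 8 beyond the axis limits of 5. Called genes are filled, and Nppa, Nppb, Myh7, Ankrd1 and Hcn4, which were not called, are open circles. Dashed lines mark a fold change of 1.5, which most abundant genes do not reach, with Acta1, Nppa, Myh7 and Ankrd1 beyond it.

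Several genes widely used as signs of cardiac load were not called at P3. Nppa, the atrial natriuretic peptide, was at 140, 171 and 64.5 CPM in sham and at 327, 406 and 256 CPM in PAB hearts. The groups did not overlap, but sham replicate 3 lay far under the others, and the log2 fold change of 1.40 ± 0.27 (SE) missed the threshold (adjusted p = 0.0662). Nppb, the B-type natriuretic peptide that lies beside Nppa, was at 109, 126 and 53.3 CPM in sham and at 160, 155 and 133 CPM in PAB hearts, with the same sham library lowest and a log2 fold change of 0.63 ± 0.23 (SE, adjusted p = 0.436). Ankrd1, an ankyrin repeat protein of the stretch response that binds titin, was at 762, 790 and 439 CPM in sham and at 1157, 1167 and 991 CPM in PAB hearts, with a log2 fold change of 0.73 ± 0.18 (SE, adjusted p = 0.171). In Nppa, Nppb, Ankrd1, Ankrd23, Mybpc2 and Xirp2 alike, sham replicate 3 was the lowest library. The same held in Krt18, Krt8, Fhl1, Fstl3, Qsox1 and other called genes. It did not hold in Acta1, where this library was the middle sham library, or in Myh7, where it was the highest sham library.

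Myh7, the slow myosin heavy chain, was at 556, 443 and 649 CPM in sham and at 1262, 1625 and 770 CPM in PAB hearts, and its PAB libraries were wide apart, with replicate 3 near the sham range (log2 fold change 1.15 ± 0.23, SE, adjusted p = 0.0736). Myh6, the fast heavy chain of the adult mouse ventricle, differed little, with a log2 fold change of 0.083 (adjusted p = 0.848). Per length, Myh7 was at 63.8 RPKM in sham and 142 RPKM in PAB hearts and Myh6 at 4365 and 4623 RPKM, so the slow form stayed a small part of the total. The transcripts are 91.7% identical with identical runs of up to 245 bases, longer than a read, so counts can be shared between them. Mhrt, which lies opposite Myh7, was at 31.8 to 33.7 CPM in sham and 27.3 to 32.8 CPM in PAB hearts. The call of Nppa and Myh7 depended on the test: DESeq2 gave adjusted p of 0.0306 and 0.0455, and over all alternatives with adjusted p those of Nppa lay between 0.00149 and 0.269 and those of Myh7 between 0.00213 and 0.328.

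The edge of the list was set by few genes. Without a threshold on the fold change, 18 genes were higher and 4 lower, as Clu, the extracellular chaperone clusterin, and Aqp4, a water channel, also had an adjusted p of at most 0.05. Clu was at 91.2, 79.3 and 82.2 CPM in sham and at 121, 116 and 123 CPM in PAB hearts (log2 fold change 0.51 ± 0.07, SE, adjusted p = 0.00898). Aqp4 was at 36.3, 40.1 and 35.6 CPM in sham and at 28.4, 27.6 and 24.5 CPM in PAB hearts (log2 fold change -0.48 ± 0.08, SE, adjusted p = 0.0249). A further 20 genes had an adjusted p between 0.0662 and 0.10. Several of these were named after their values were seen, and give an impression of what lies just outside. Angpt1, a ligand of the endothelial Tie2 receptor, was at 17.4, 19.1 and 33.2 CPM in sham and at 9.17, 9.09 and 13.9 CPM in PAB hearts. Hmox1, heme oxygenase 1, was at 13.6, 12.4 and 13.7 CPM in sham and at 16.5, 19.1 and 19.9 CPM in PAB hearts. The intermediate filament protein synemin (Synm), a member of the filament list below, was at 6.44, 6.20 and 4.88 CPM in sham and at 11.1, 10.3 and 11.1 CPM in PAB hearts (adjusted p = 0.0770).

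Gene lists place these genes among their relatives, and are described by counts and medians against the median of -0.001 over all tested genes. In the list of Z-disc, filament and stretch genes, 5 of 46 tested genes were called higher (Krt18, Krt8, Xirp2, Fhl1, Ankrd23) and 0 lower, where 0.108% of all genes were called higher. In 28 of them (60.9%) all PAB libraries were above all sham libraries and in 3 (6.52%) below, against 8.65% and 8.02% of all genes, and the median log2 fold change was 0.20. In the list of fetal and sarcomere genes, Acta1 alone of 20 was called by the main edgeR fit, and DESeq2 also called Nppa and Myh7. In this list 11 (55%) were above and 0 below without overlap, and the median was 0.18. Most members of both lists thus moved little in size. These lists were drawn up with the changes of several members known, so their counts are not independent evidence.

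Counts without overlap are to be read against the same 8.65% of all genes above and 8.02% below. Of 31 glycolysis genes 0 were called by the main edgeR fit, while 15 (48.4%) were above without overlap and 1 below, with a median log2 fold change of 0.17. Slc16a3, a lactate exporter, moved most, from 15.5, 12.2 and 9.70 CPM in sham to 30.4, 22.2 and 25.8 CPM in PAB hearts, a log2 fold change of 1.07 ± 0.21 (SE, adjusted p = 0.0736). Its call depended on the fit. Slc16a3 was called by edgeR with 2 groups only (adjusted p = 0.00626) and with the replicate block (0.000775), but not by DESeq2 (0.1005). Of 22 hypoxia genes 6 (27.3%) were above and 1 below without overlap, and the lowest adjusted p was that of Bnip3, a mitochondrial inducer of mitophagy, at 46.2 ± 4.67 CPM in sham and 63.8 ± 2.5 CPM in PAB hearts (SD, n = 3, adjusted p = 0.0662). Of 83 genes of the cytosolic ribosome 24 (28.9%) were above and 1 below without overlap, with a median of 0.11, and of 81 oxidative phosphorylation genes 9 (11.1%, close to the share of all genes) were above and 1 below, with a median of 0.073. Over all genes tested the P3 log2 fold change fell with exonic length (Spearman rho = -0.182 across genes, which are not independent replicates). With the trend of each library with length removed, an alternative applied to the lists after the data were seen, the medians were 0.064 for the ribosome and 0.016 for oxidative phosphorylation, beside -0.0069 for all genes of known length. The lowest adjusted p of these lists was 0.393 for Rps27l, a ribosomal protein, and 0.632 for Ndufa12, a subunit of complex I. Of 40 fatty acid oxidation genes 6 (15%) were above and 0 below, with Fabp3, the heart fatty acid binding protein, lowest in p (adjusted p = 0.373).

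Cell cycle genes moved little. Of 92 tested, 0 were called by edgeR, and 3 (3.26%) were above and 5 (5.43%) below without overlap, under the 8.65% and 8.02% of all genes, and the log2 fold changes lay between -0.23 and 0.25 with a median of -0.035. Of 25 immediate early genes 7 (28%) were above and 0 below without overlap, and Junb, a subunit of AP-1, had the lowest p, at 7.72 ± 0.709 CPM in sham and 10.4 ± 0.919 CPM in PAB hearts (SD, n = 3, adjusted p = 0.233). Of 28 genes of the stress and unfolded protein responses 4 (14.3%) were above and 0 below, with Slc7a5, an amino acid transporter, lowest in p (adjusted p = 0.498). Of 30 interferon genes 1 (3.33%) was above and 0 below, with a median of -0.089 and Ifit2 lowest in p (adjusted p = 0.747).

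Genes of the matrix held Spp1 as the sole call of 60, where 0.108% of all genes were called higher and 0.0190% lower, with 15 (25%) above and 2 (3.33%) below without overlap, against 8.65% and 8.02% of all genes, and a median of 0.046. Of 26 inflammation genes Saa3 alone was called, with 6 (23.1%) above and 1 below and a median of 0.23. Outside these 2 calls neither list had a gene at an adjusted p of at most 0.05. Of 48 genes of sodium and calcium handling 15 (31.3%) were below and 6 (12.5%) above without overlap, with a median of -0.14 and 0 called by the main edgeR fit. The lowest p was that of Hcn4, the pacemaker channel, which was at 14.3, 15.2 and 18.3 CPM in sham and at 6.56, 9.14 and 11.1 CPM in PAB hearts (log2 fold change -0.83 ± 0.18, SE, adjusted p = 0.110). Its call depended on the fit, as DESeq2 called it lower (adjusted p = 0.00563). So did edgeR with 2 groups only (0.0467) and with the replicate block (0.00537). Of 53 potassium channel genes 4 (7.55%) were above and 4 (7.55%) below, no more than among all genes, and Kcnj4, an inward rectifier, was at 1.16 ± 0.406 CPM in sham and 2.40 ± 0.219 CPM in PAB hearts (SD, n = 3, adjusted p = 0.207). Of 42 growth signal and transcription factor genes 1 (2.38%) was above and 7 (16.7%) below, with the cardiac factor Tbx5 lowest in p, at 22.8 ± 1.33 CPM in sham and 17.9 ± 1.33 CPM in PAB hearts (SD, n = 3, adjusted p = 0.191). Meis1, a factor known to limit cardiomyocyte division and the first in p of the cell cycle list, was at 41.8 ± 1.63 and 35.6 ± 1.73 CPM (SD, n = 3, adjusted p = 0.310).

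**Figure D3:**
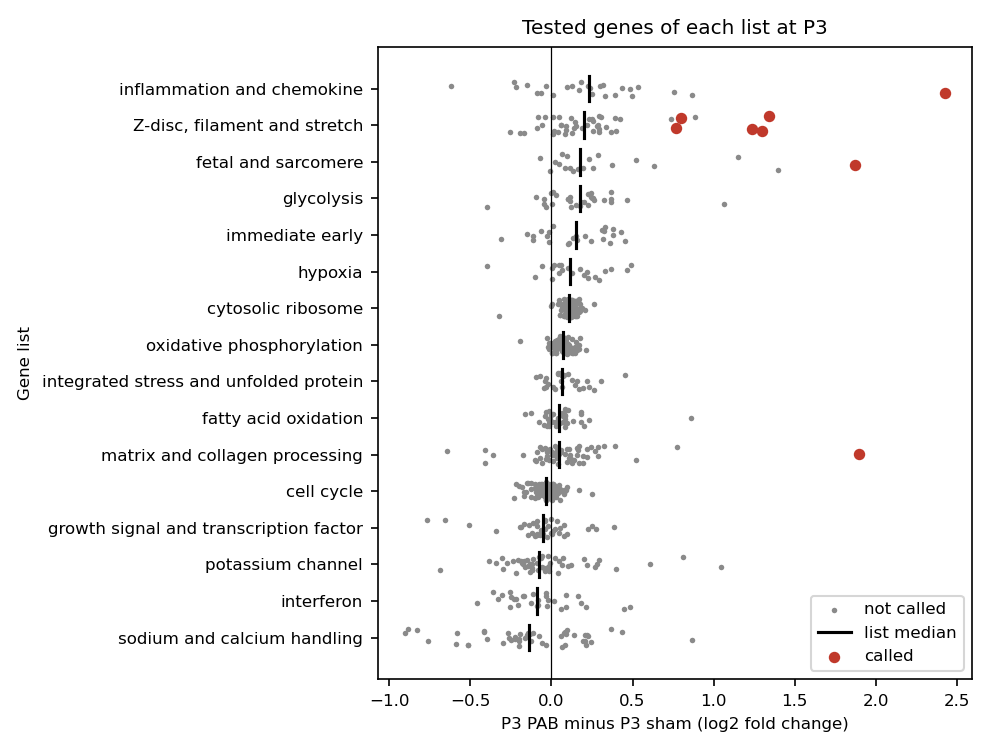
Log2 fold change of P3 PAB against P3 sham on the horizontal axis for each tested gene of 16 gene lists, with called genes as large points and the median of each list as a bar. Medians run from -0.14 for sodium and calcium handling to 0.23 for inflammation, cell cycle genes stay between -0.23 and 0.25, and 5 called genes fall in the Z-disc list.

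The P7 libraries show which of these early changes were present 4 days later. Of the 17 genes higher at P3, 13 were also called higher at P7 PAB against P7 sham, where 9.63% of tested genes were called higher and 8.59% lower. Of the rest, Mapt was called lower at P7, and Xirp2, Saa3 and Mybpc2 were not called. Of the 3 lower genes Art1 was called lower at P7 and Pmel and Cntn2 were not called. The P7 PAB libraries are 2, and all P7 sham libraries have high Xist and little or no Ddx3y while both P7 PAB libraries have the reverse, so that operation and this contrast cannot be told apart at P7. The difference between the effects at the 2 ages was tested as an interaction, which had an adjusted p of at most 0.05 in 25.9% of tested genes.

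The early change was smaller than the later one in several genes. Fhl1 was at 131, 127 and 113 CPM in P7 sham and at 379 and 301 CPM in P7 PAB hearts, and its effect was larger at P7 (adjusted p = 0.00455 for the difference). 4833412C05Rik was at 2.12, 1.70 and 0.796 CPM in P7 sham and at 17.7 and 11.1 CPM in P7 PAB hearts (adjusted p = 0.00994), and Bex1 at 21.7, 19.3 and 16.6 CPM and 48.1 and 38.1 CPM (adjusted p = 0.0313). Art1 was at 9.36, 9.28 and 10.4 CPM in P7 sham and at 1.83 and 1.73 CPM in P7 PAB hearts, so that its fall was the larger there (adjusted p = 0.0213). Of the load markers not called at P3, Nppa, Nppb and Myh7 had a larger effect at P7, and Ankrd1 did not pass the test of the difference (adjusted p = 0.210). Nppa was at 91.6, 69.2 and 56.3 CPM in P7 sham and at 1786 and 1265 CPM in P7 PAB hearts (adjusted p = 0.000218). Acta1, at 61.0 to 154 CPM in P7 sham and 720 and 820 CPM in P7 PAB hearts, did not pass the test of the difference (1.07 ± 0.43, SE, adjusted p = 0.0830).

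Other effects were present at P3 and smaller, or opposite, at P7. These genes were chosen by their P3 change, and the difference between ages reuses the same P3 libraries. The choice alone therefore favours smaller effects at P7, which the adjusted p of the difference does not allow for. Xirp2 was at 204, 207 and 193 CPM in P7 sham and at 259 and 208 CPM in P7 PAB hearts, a log2 fold change of 0.22 that was not called, and the effects differed (adjusted p = 0.00395). All P7 sham libraries were above all P3 PAB libraries for Xirp2. Mapt was at 48.9, 43.0 and 44.7 CPM in P7 sham and at 25.9 and 32.5 CPM in P7 PAB hearts, a fall of the gene that had risen at P3 (adjusted p = 8.58e-05 for the difference). Pmel was at 0.591, 0.777 and 0.838 CPM in P7 sham, near the level of P3 PAB hearts, and at 1.14 and 1.18 CPM in P7 PAB hearts (adjusted p = 0.00137). Cntn2 was at 7.05, 4.18 and 5.37 CPM in P7 sham and at 3.71 and 5.82 CPM in P7 PAB hearts, which overlapped (adjusted p = 0.0386). Saa3 was between 0 and 0.197 CPM in P7 sham and at 0.175 and 0.246 CPM in P7 PAB hearts, all under its P3 levels, so its fold at P7 rests on few counts, and the difference between its effects did not pass the test (adjusted p = 0.568). Mybpc2 was at 28.3, 18.7 and 25.6 CPM in P7 sham and at 34.4 and 34.6 CPM in P7 PAB hearts, which did not overlap. Its log2 fold change at P7 was 0.51 (adjusted p = 0.0344), so it missed the fold threshold alone, and the difference between its effects did not pass the test (adjusted p = 0.128).

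**Figure D4:**
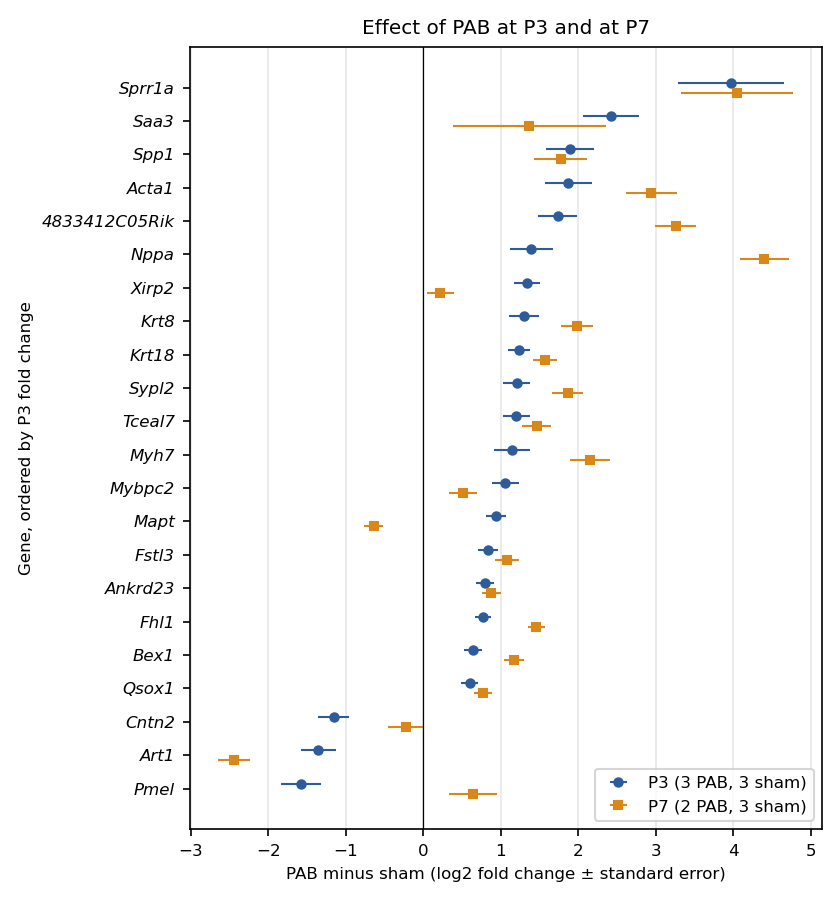
Log2 fold change of PAB against sham with its standard error at P3 (circles, 3 PAB and 3 sham libraries) and at P7 (squares, 2 PAB and 3 sham libraries) for the 20 genes called at P3 and for Nppa and Myh7. Most genes keep their side of 0 and lie farther from it at P7, Xirp2 and Cntn2 lie near 0 at P7, and Mapt and Pmel change sides.

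Leaving out single libraries changed which genes were called at P3. Each such fit also has a smaller group, so it cannot tell a call that rests on 1 library from one lost for lack of libraries. When each of the 6 P3 libraries was left out in turn, Krt18, Xirp2 and Fhl1 were called every time, with adjusted p of at most 0.0434, 0.0475 and 0.0498. Tceal7 and 4833412C05Rik were called in 5 of the 6 fits, Mapt, Sypl2, Ankrd23 and Saa3 in 4, Krt8 and Mybpc2 in 3, Pmel, Spp1 and Art1 in 2, and Acta1, Fstl3, Bex1, Cntn2 and Qsox1 in 1. Sprr1a was called in 0 of these 6, with an adjusted p between 0.0634 and 0.152 and fitted log2 fold changes between 3.75 and 4.36. The total was 4 higher and 0 lower genes without PAB replicate 2, 8 and 0 without sham replicate 2, 10 and 2 without sham replicate 3, 9 and 1 without PAB replicate 1, 13 and 4 without PAB replicate 3, and 23 and 3 without sham replicate 1. Without sham replicate 1, whose Xist set it apart, Acta1, Sprr1a and Cntn2 lost their calls (adjusted p = 0.0713, 0.0694 and 0.0827). Their log2 fold changes were then 1.70, 4.36 and -1.12, beside 1.87, 3.97 and -1.16 with all libraries. In the same fit 9 genes not called with all libraries gained a call, 8 higher and 1 lower. Among the 9, Col8a1, a collagen chain of the matrix list, had a log2 fold change of 0.67 (adjusted p = 0.0339), and the lower gene was Angpt1, a ligand of the endothelial receptor Tie2, at -1.28 (adjusted p = 0.0268). Acta1, Sprr1a and Cntn2 also lost their calls with the Xist class of the libraries as a term in the fit (adjusted p = 0.0713, 0.0709 and 0.0778). With this term their log2 fold changes were 1.70, 4.36 and -1.12.

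**Figure D5:**
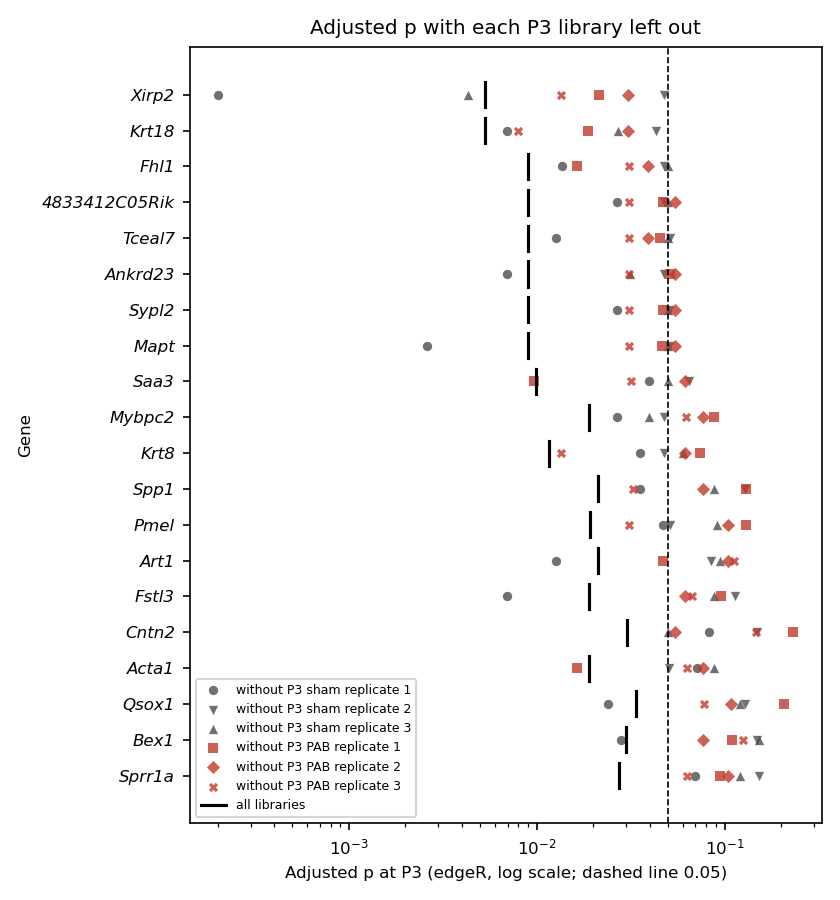
Adjusted p of the 20 called genes at P3 on a log axis, with all libraries (bars) and with each P3 library left out in turn (gray for a sham, red for a PAB library). The dashed line marks 0.05, and Xirp2, Krt18 and Fhl1 alone stay to its left in all 6 fits.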

How the data were processed

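The authors aligned paired reads to GRCm38 (mm10) with STAR 2.5.2b and the Gencode annotation, and deposited 1 table of raw whole-number counts per gene without normalization. The counting tool, strand setting and Gencode release are not given in the sources used here. Of 50600 listed names, 47808 matched GENCODE M21, from which coordinates and exonic lengths come, and 27 had been turned into dates. Groups came from the labels. The tests used edgeR 4.0.16 in R 4.3.3 (TMM, filterByExpr, quasi-likelihood), with all 11 libraries in 4 groups, which share 1 estimate of the spread. DESeq2 1.42.0 was an alternative. P-values were adjusted over the 15808 genes tested. RPKM values divide mean CPM by exonic length. The steps were tested on simulated data. Transcripts were compared with BLAST 2.17.0, and figures drawn with matplotlib 3.10.9. The members, gene lists and rules for named genes were chosen with earlier results of these data known. Named are all called genes, members of the fetal and Z-disc lists with a mean of at least 10 CPM, a fold change of 1.5 and no overlap, the gene of lowest p of each other list, Nppa, Nppb, Myh6, Myh7, Acta1, Ankrd1 and Actc1, the first 3 genes of each marker list, and Xist and Ddx3y. Other genes were named after their values were seen. Alternatives were other scaling (RLE size factors, total counts), filters and thresholds, DESeq2, 2 groups only, a replicate block, thinning, removal of the trend with length, a term for the Xist class, leaving out X and Y genes, and leaving out each library. The list medians without the length trend were added after the data were seen.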

Additional observations from a re-analysis of the deposited data

Results flagged for a closer look

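Among the 20 called genes and 6 further load and sarcomere genes (Nppa, Nppb, Myh6, Myh7, Ankrd1, Actc1), the effect of PAB at P7 differed from that at P3 in 12 by the test of the interaction (edgeR, adjusted p of at most 0.05), as it did in 25.9% of all genes tested. The called genes were chosen by P3 values that this test reuses, which alone favours smaller effects at P7 among them. Among genes called at P3, the effect at P7 minus that at P3, in log2, was -1.12 for Xirp2, -1.58 for Mapt, 2.22 for Pmel and 0.94 for Cntn2, 4 genes whose P3 change was absent from the calls or opposite at P7. It was 0.69 for Fhl1, 1.52 for 4833412C05Rik, 0.53 for Bex1 and -1.08 for Art1, whose changes were in the same direction and larger at P7. Among load markers not called at P3 it was 3.00 for Nppa, 1.58 for Nppb, 1.00 for Myh7 and -0.97 for Myh6. Of the genes with the lowest p of their lists, it was 1.06 for Bnip3, 0.85 for Rps27l, -0.63 for Tbx5, 1.47 for Slc16a3 and 0.94 for Hcn4, which also passed. Some marker genes and genes named after their values were seen, such as Aqp4, Mhrt and Comp, passed too and are not listed. The P7 PAB group holds 2 libraries, and at P7 Xist and Ddx3y separate sham from PAB, a contrast that cannot be told apart from the operation. Groups of 3 libraries were too small for a search for single libraries far from the rest.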

How the results depend on the processing

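The results were 17 genes called higher and 3 lower at P3, 14 of these called the same way at P7, and 8 with a different effect at P7. Scaling by the total count gave 6 lower genes and removal of the length trend 5. Without a filter on low counts (edgeR's bias-adjusted residuals) the values were 38, 11, 35 and 23, with DESeq2 and adjusted p 28, 11, 27 and 16, with DESeq2 and unadjusted p 121, 88, 86 and 69, and with edgeR and unadjusted p 151, 157, 113 and 111. Leaving out 1 library gave 4 to 23 higher and 0 to 4 lower genes, 3 to 18 called the same way at P7 and 2 to 11 with a different effect. The other values under RLE size factors, the stricter filter, no fold change threshold, 2 groups only, thinning, the Xist class as a term and leaving out X and Y genes stayed within 1.5 times. The fit of 2 groups gives no value for the difference. With the replicate block the values were 22 higher, 8 lower, 22 and 14. The replicate numbers of the labels are not said to mark a litter or day, and same-numbered P3 libraries deviated together with correlations of 0.0831, 0.0791 and 0.144 across genes, which are not all above 0.1, although each sham library correlated best with the PAB library of its number. Pairs with different numbers had correlations between -0.0846 and 0.00516. The fit behind the calls left the number out, although a limit of 0.1 cannot show that libraries are unpaired. The counts with the replicate block allow for pairing by number. Of the 38 genes recomputed under the alternatives (the called genes, the load markers and the genes of lowest p of each list), none reversed. DESeq2, the unfiltered fit and the block each called all 20 genes. The cause of these shifts was not tested. Depth limits the genes under 1 CPM, such as Sprr1a.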

Other observations

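Because Cntn2 fell and Hcn4 led its list, 14 genes known from the conduction system of the heart were looked up after those values were seen, and no test was made of them as a set. Of the 13 tested, all had a negative log2 fold change at P3, with a median of -0.41 beside -0.001 over all genes tested. In 4 every PAB library was below the sham range, as in 8.02% of all genes tested, and in 0 above it. Cntn2 and Hcn4, whose values prompted the list, count among the 13 and among the 4, so these counts were partly fixed in advance. Cntn2 alone was called by the main edgeR fit, while DESeq2 also called Hcn4 lower (adjusted p = 0.00563). Besides Cntn2, those without overlap were Hcn4, Scn10a and Etv1. Scn10a, a sodium channel gene of nerve and conduction tissue, was at 8.54, 7.80 and 9.15 CPM in sham and at 5.73, 6.54 and 4.71 CPM in PAB hearts. Gja5, the gap junction protein connexin 40, overlapped, at 19.4 to 28.4 CPM in sham and 15.9 to 20.2 CPM in PAB hearts, and Tbx3, a factor of the nodes, was at 11.3 to 14.1 CPM in sham and 10.7 to 13.4 CPM in PAB hearts. At P7, 4 of the 13 were called lower and 0 higher, where 8.59% of all genes were called lower and 9.63% higher, namely Kcnj3 (log2 fold change -1.50, adjusted p = 7.64e-05), Tbx3 (-0.75, 0.00033), Etv1 (-0.68, 0.00304) and Smoc2 (-0.60, 0.000756), while the effects on Cntn2 and Hcn4 were -0.22 and 0.11 and were not called. Id2, a regulator of transcription, was higher at P7 by a log2 fold change of 0.42 (adjusted p = 0.00181), under the fold threshold, and its effects at the 2 ages differed (adjusted p = 0.00455 for the difference). Atrial markers other than Nppa overlapped at P3, and the part of atrial or nodal tissue in these values was not tested.

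Other genes of muscle and load that moved without passing the test were seen after the fact. Casq1, the skeletal calsequestrin that stores calcium, was at 18.8, 22.1 and 12 CPM in sham and at 32.6, 31.3 and 33.0 CPM in PAB hearts (adjusted p = 0.171), and Tnfrsf12a, the receptor of TWEAK, was at 59.7, 66.4 and 39.7 CPM in sham and at 90.1, 91.4 and 98.6 CPM in PAB hearts (adjusted p = 0.104). Comp, a cartilage matrix protein, was at 2.66, 2.55 and 2.62 CPM in sham and at 2.12, 1.26 and 1.63 CPM in PAB hearts, while at P7 it was called higher with a log2 fold change of 1.40, and the effects differed (adjusted p = 0.000405 for the difference).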
